A study of Homo sapiens with 6 samples.

Results

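The genes of chromosome 15 were compared between METTL3-silenced and control ARPE-19 cells, with the proximal stretch of the chromosome set against the distal one. All rows of the deposited gene table that lie on chromosome 15 were taken, of any gene type, and they were split by the start of the gene on GRCh38, between GABPB1-AS1 (start 50354959) and TRPM7 (start 50552473). This gave 315 of the 7758 listed genes, 143 proximal and 172 distal. The split was chosen from the ratio of the group means in this same comparison, and the table lists only genes that its authors had called different in it. The ratios and counts of calls below are therefore a description, with no test of the difference between proximal and distal genes. GABPB1-AS1, the last listed gene before the split, had a log2 ratio of 1.42, and TRPM7, the first after it, had one of -0.58.

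ARPE-19 is a human cell line of the retinal pigment epithelium (RPE). Stably selected lines had been made with lentivirus that expressed a hairpin RNA, directed at METTL3 in the sh-METTL3 group and a control in the sh-Control group. Both groups, of 3 libraries each, received lipopolysaccharide (LPS), 1 μg/ml over 24 h. The sources used here do not tell whether replicate libraries stem from different infections, so any p-value measures only the spread between these libraries, which may be technical.

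Values are scaled counts, that is, reads per gene divided by 1 size factor per library. Reads on listed genes ran from 10898434 to 17750052 per library, and no libraries of a group agreed within sampling noise (chi-square per degree of freedom from 3.89 to 17.6). The targeted gene, METTL3, held 1154, 1108 and 1091 in the control libraries and 966, 1001 and 765 in the sh-METTL3 libraries. Its level was 81.5% of control (log2 fold change -0.30, SE 0.097, adjusted p = 0.0108 by limma), and the adjusted p was 0.0881 with RLE size factors in edgeR and 0.0818 when adjusted over all annotated genes. The fold change rests in part on sh-METTL3 replicate 3, since it was -0.18 on the log2 scale when this library was left out (adjusted p = 0.0135 by limma). Of 12 RPE markers, 6 were listed (BEST1, KRT18, KRT8, MITF, PMEL and SERPINF1), and the others were not analysed here.

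Chromosome 15 is acrocentric, so its protein-coding genes lie on the long arm, and the genes nearest the centromere include the imprinted domain of 15q11-q13, where some genes are read from the paternal copy only and others from the maternal copy only in certain tissues. The same stretch carries the genes for ZO-1, a scaffold of tight junctions, for thrombospondin-1 and fibrillin-1 of the extracellular matrix, and for β2-microglobulin, the light chain of MHC class I. The distal stretch carries tropomyosin-1, pyruvate kinase, annexin A2 and the retinol receptor STRA6. METTL3 is the catalytic subunit of the complex that writes N6-methyladenosine into mRNA.

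Promoters of 3 proximal genes are shown because these genes stand at different places in the results. TJP1 (ZO-1) had a level close to the proximal median, B2M (β2-microglobulin) lay further below it, and MKRN3, an imprinted gene, was higher in sh-METTL3. Each run is the 250 bases before the RefSeq start, from the RefSeq promoter table on GRCh38.p14, written 5′ to 3′ on the strand of the gene. B2M is on the plus strand (chr15:44711267-44711516), TJP1 on the minus strand (chr15:29969050-29969299) and MKRN3 on the plus strand (chr15:23565424-23565673). Capitals mark matches, on either strand, to the interferon-stimulated response element, the kappa-B motif, the CCAAT box (CCAAT) and the GC box (GGGCGG). The TATA box (TATAAA), the E-box (CACGTG) and the AP-1 motif (TGANTCA) were also searched.
B2M: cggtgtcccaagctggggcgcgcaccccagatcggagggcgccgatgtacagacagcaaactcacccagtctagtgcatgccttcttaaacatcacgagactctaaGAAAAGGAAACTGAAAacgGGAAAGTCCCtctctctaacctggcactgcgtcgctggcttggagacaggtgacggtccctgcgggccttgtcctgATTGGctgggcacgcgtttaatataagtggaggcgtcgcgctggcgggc
TJP1: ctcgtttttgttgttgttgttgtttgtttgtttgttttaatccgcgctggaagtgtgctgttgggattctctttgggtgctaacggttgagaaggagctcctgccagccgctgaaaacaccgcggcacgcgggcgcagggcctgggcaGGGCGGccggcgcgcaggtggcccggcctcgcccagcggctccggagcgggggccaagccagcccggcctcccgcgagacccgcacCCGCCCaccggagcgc
MKRN3: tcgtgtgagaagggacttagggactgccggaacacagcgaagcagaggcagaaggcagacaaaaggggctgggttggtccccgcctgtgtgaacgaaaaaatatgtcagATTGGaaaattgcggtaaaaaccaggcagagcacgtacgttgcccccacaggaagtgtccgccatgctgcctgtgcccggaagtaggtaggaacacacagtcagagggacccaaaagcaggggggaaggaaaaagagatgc

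In the B2M run the response element was matched 144 and 138 bases before the start, with matches that overlap each other, the kappa-B motif 125 bases before it and a CCAAT box 49 bases before it. In the TJP1 run GC boxes lay 102 and 16 bases before the start, and in the MKRN3 run a CCAAT box lay 141 bases before it. Of all 27305 promoters in the table, 3.07% held the response element, 9.57% the kappa-B motif, 33.04% a CCAAT box, 42.3% a GC box, 11.1% a TATA box, 6.49% an E-box and 6.60% an AP-1 motif. A match is a string of letters and no evidence of a bound factor. The table held a promoter for 72.0% of the proximal members and 84.3% of the distal members, so a comparison of base composition between them was void and is not given.

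Proximal genes were lower in METTL3-silenced cells and distal genes went both ways. Of the 143 proximal genes, 134 were called lower and 9 higher by limma (adjusted p under 0.05), where 52.2% of all listed genes were called lower and 47.6% higher. Of the 172 distal genes, 82 were called lower and 90 higher. The contrast chose these genes, so nothing is read from the counts themselves. The 3 sh-METTL3 libraries did not overlap the 3 control libraries for 143 proximal and 167 distal genes, where 98.5% of all listed genes had groups that did not overlap, so these counts set neither side apart. In bulk RNA, fewer cells of a kind and less RNA per cell cannot be told apart.

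The median proximal gene stood at 48.1% of its control level, with a median log2 ratio of -1.05 (quartiles -1.31 and -0.75). The median distal gene stood at 117% of control, with a median log2 ratio of 0.23 (quartiles -0.43 and 0.67), but its direction is not stable. It was -0.21 (86.2% of control) for protein-coding genes, -0.20 for genes with a mean of at least 50 and -0.19 with the split at 45 Mb. The 7443 listed genes of other chromosomes had a median log2 ratio of -0.20 (quartiles -0.54 and 0.70). Among 22 other nuclear chromosomes, with Y left out, the lowest median was -0.56, on chromosome 11. The next was -0.31, on chromosome 21, and the highest 0.32, on chromosome 7. The 16 listed mitochondrial genes had a median of -0.34. The proximal median was below all of these, but a stretch chosen by its ratio is there set against whole chromosomes, so nothing is read from this rank. All of chromosome 15 had a median of -0.53, above that of chromosome 11.

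**Figure D1:**
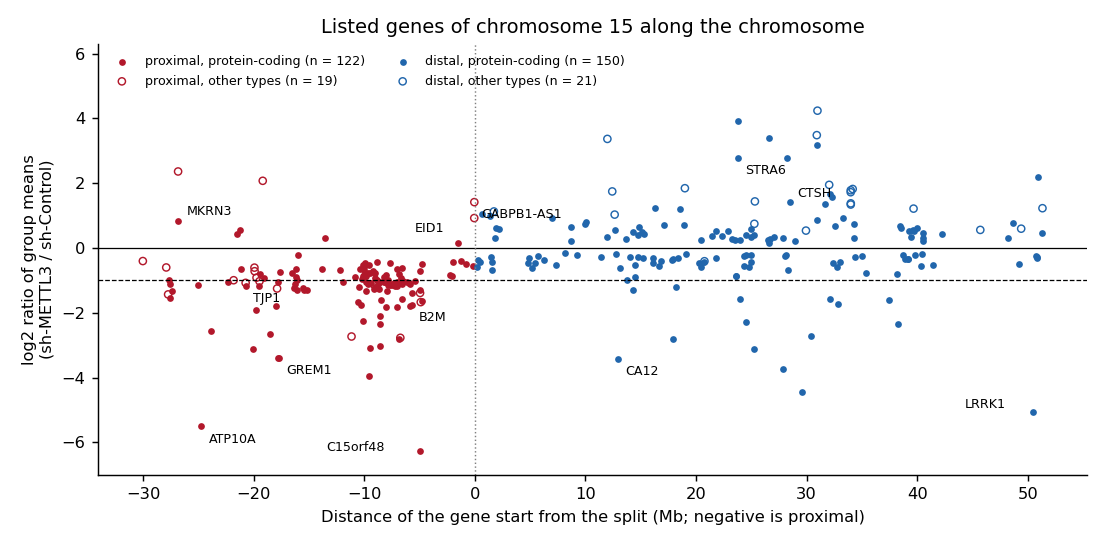
The log2 ratio of group means (y axis, sh-METTL3 over sh-Control) of each listed gene of chromosome 15 is plotted by the distance of its start from the split in Mb (x axis, proximal to the left), with filled points for protein-coding genes, open circles for other types and a dashed line at -1. The left side holds 134 lower and 9 higher genes around a median of -1.05, the right side 82 lower and 90 higher genes, and 3 genes with 0 reads in 1 group are not drawn.

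The 3 sh-METTL3 libraries gave nearly the same value. Over proximal genes the median level was 49.1%, 48.2% and 48.9% of control in sh-METTL3 replicates 1, 2 and 3. Each control library, set against the other 2, gave 98.6%, 100.4% and 101%. Every sh-METTL3 library lay far below every control library, and the spread within a group was a few percent. The genes were listed and the split was set from these same libraries, so this separation is a description only. Over distal genes the sh-METTL3 libraries gave 112%, 116% and 111%, while over the protein-coding genes among them all 3 were below control (log2 of the median -0.17, -0.15 and -0.21). Over the other chromosomes the medians were 89.6%, 88.3% and 89.0%. Replicate 3 of sh-METTL3 differed most from its group by chi-square, and without it the proximal median log2 ratio was -1.08.

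**Figure D2:**
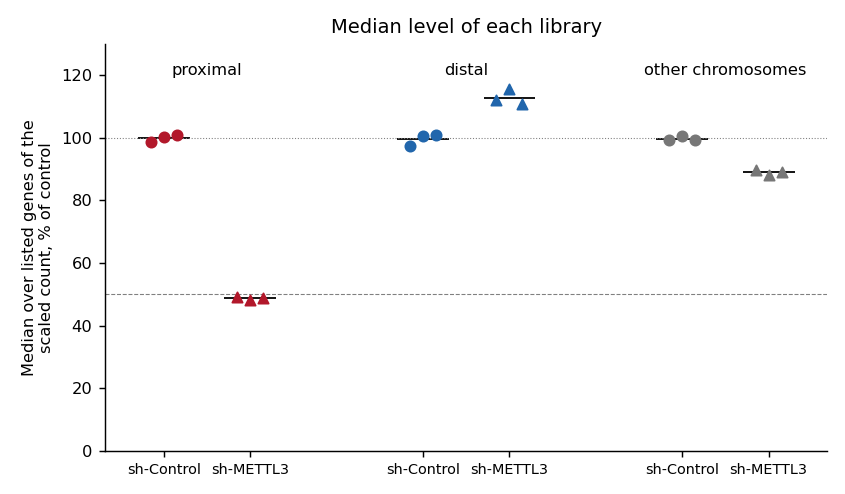
Each point is 1 library, and the y axis gives the median over listed genes of the scaled count as a percentage of the control mean (for a control library, of the mean of the other 2), with a bar at the group mean. The sh-METTL3 libraries sit at 48.2% to 49.1% for proximal genes, near the dashed line at 50%, at 111% to 116% for distal genes (below control in each library for the protein-coding genes among them, not drawn), and at 88.3% to 89.6% for other chromosomes.

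A ratio of reads inside 1 library does not depend on the size factors. Reads on proximal genes divided by reads on distal genes came to 0.793, 0.804 and 0.840 in the control libraries. In the sh-METTL3 libraries the ratio was 0.369, 0.378 and 0.365. The groups did not overlap, and the mean fell from 0.813 ± 0.0246 to 0.371 ± 0.00696 (SD, n = 3 each), which is 45.6% of control. This separation too is a description, since the same libraries served to list and split the genes. THBS1 alone took 24.3% to 29.9% of the proximal reads, and without it the ratio was 0.602 ± 0.00795 in control cells and 0.269 ± 0.00451 in METTL3-silenced cells (SD, n = 3 each), or 44.8% of control. Proximal genes held 2.06% ± 0.0926 of the reads on listed genes in control cells and 1.10% ± 0.0198 in METTL3-silenced cells. Distal genes held 2.54% ± 0.0383 and 2.96% ± 0.0177 (SD, n = 3 each).

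The spread of the ratios was described as well. Of the 143 proximal genes, 72 (50.3%) stood between 40% and 60% of control, against 8 of 172 distal genes (4.65%) and 650 of 7443 on other chromosomes (8.73%). The interquartile range of the log2 ratio was 0.56 for proximal genes, 1.10 for distal genes and 1.24 for other chromosomes. Over all of chromosome 15 it was 1.44, and over the 22 other nuclear chromosomes without Y it ran from 0.70 to 1.40. At the extremes, 18 proximal and 9 distal genes were below 25% of control, and 3 proximal and 30 distal genes were above 200%. The table lists called genes only, so log2 ratios close to 0 are rare in every set. A set with many genes on both sides of 0 spans this gap, which widens its interquartile range. The split was also chosen from these ratios, and the band from 40% to 60% holds the proximal median. These shares and ranges are therefore a description, and no difference between the sets is read from them.

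**Figure D3:**
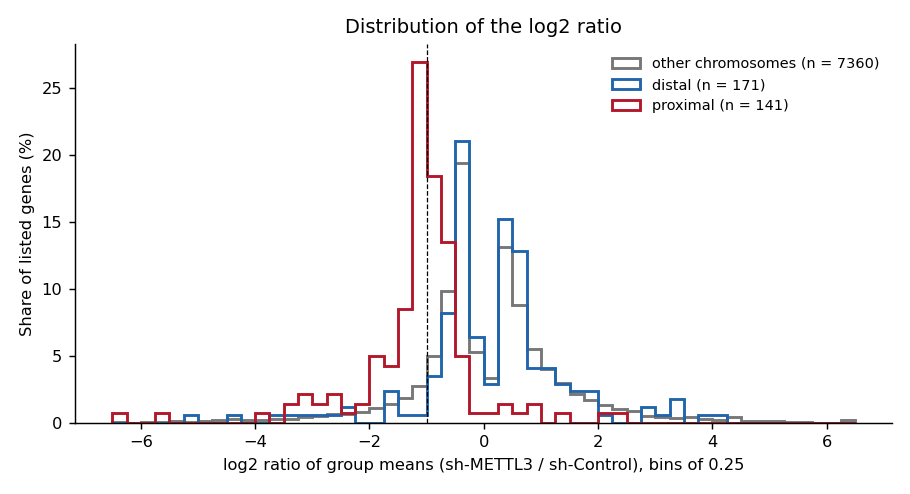
Share of listed genes (y axis, percent) by the log2 ratio of group means (x axis, bins of 0.25, with values past 6.4 in either direction put at that limit in the outer bins) for 141 proximal genes, 171 distal genes and 7360 genes of other chromosomes with reads in both groups. The proximal curve has 1 main peak at the dashed line at -1, and the distal and other curves have a peak on each side of 0.

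Ratios were also described by expression level. Of 33 proximal genes with a mean scaled count of 1000 or more over the 6 libraries 32 were lower, and their median log2 ratio was -0.93 (quartiles -1.17 and -0.69). Of 84 genes from 100 to 1000, 79 were lower, and the median was -1.03 (quartiles -1.18 and -0.73), and 60.7% of them stood at 40% to 60% of control. Among 26 genes under 100 the median was -2.01 (quartiles -2.95 and -1.29), so the weakly expressed listed genes had the widest ratios. The part that the listing of called genes only has in this median was not tested. Distal genes of 1000 or more had a median of -0.20 (quartiles -0.31 and 0.30, n = 70), those from 100 to 1000 a median of -0.27 (n = 69) and those under 100 a median of 1.57 (n = 33).

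The direction of the distal median depended on gene type. Of 122 proximal protein-coding genes 117 were lower, with a median log2 ratio of -1.06, and of 21 proximal genes of other types 17 were lower, with a median of -1.03. Of 150 distal protein-coding genes 81 were lower, with a median of -0.21, close to the -0.24 of protein-coding genes on other chromosomes. Of 22 distal genes of other types, which were antisense RNAs, long intergenic RNAs, pseudogenes and 1 miscellaneous RNA, 21 were higher, with a median of 1.41, and all 10 antisense RNAs among them were higher. Genes of these types were mostly higher elsewhere too, with 718 of 975 on other chromosomes (73.6%, median 1.04), and 216 of 275 antisense RNAs (78.5%). The 17 lower genes of 21 on the proximal side stand beside the same background.

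The share of annotated protein-coding genes that the table lists was higher on the proximal side. GENCODE release 29 has 226 of them there, and the table holds 122 (54.0%). On the distal side 150 of 374 (40.1%) were listed, and on the other chromosomes 6468 of 19322 (33.5%). For other gene types the shares were 3.03%, 2.48% and 2.62%. Listing is itself a product of the contrast, and unlisted genes were not analysed here.

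In windows of 5 Mb the proximal medians changed little along the chromosome. From 20 to 45 Mb the 5 window medians lay between -0.99 and -1.08, and in the window from 40 to 45 Mb all 70 listed genes were lower. From 45 to 50 Mb 13 of 14 genes were lower, with a median of -0.85. The window from 50 to 55 Mb, which holds the split, had 7 lower genes of 15 and a median log2 ratio of 0.30. The 10 windows beyond 55 Mb had medians from -0.34 to 0.91, with the highest from 80 to 85 Mb, where 7 of 25 genes were lower. The longest unbroken row of lower genes was 87 genes from SPRED1 (start 38252326) to FBN1 (start 48408306), over 10.2 Mb, whereas the longest on the distal side was 6 genes (RSL24D1 to ZNF280D).

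Genes just before the split stood closer to their control level. The 134 genes up to SQOR (start 45631148) had a median of 47.4% of control, and 128 of them were lower. The 9 genes after it, from MYEF2 (start 48134631) on, had a median of 74.5% of control and 6 lower genes, with 75.6%, 77.3% and 67.2% in the sh-METTL3 libraries. SQOR was taken as the border after the values were seen. Among the genes within 1 Mb before the split, DTWD1 and GABPB1 had log2 ratios of -0.48 and -0.55, and GABPB1-IT1 and GABPB1-AS1 of 0.93 and 1.42. Within 1 Mb after it TRPM7, SPPL2A and AP4E1 had log2 ratios of -0.58, -0.37 and -0.44, and TNFAIP8L3 of 1.05.

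In all, 9 proximal genes were higher in METTL3-silenced cells. MKRN3, which encodes a makorin RING finger protein and is read from the paternal copy, held 57.4, 56.7 and 55.1 in the control libraries and 88.6, 97.9 and 118 in the sh-METTL3 libraries (log2 ratio 0.85). Its antisense neighbour AC126407.1 overlaps it and held 4.12 ± 0.577 and 21.2 ± 8.86 (SD, n = 3 each). APBA2, a neuronal adaptor protein, and its neighbour FAM189A1 had log2 ratios of 0.43 and 0.55, and the long intergenic RNA AC012236.1 had 2.08 from a control level of 3.10 ± 2.41 (SD, n = 3). MEIS2, a homeobox factor of the eye and limb, went from 657 ± 45.5 to 818 ± 90.9 (SD, n = 3 each), a log2 ratio of 0.32. EID1, an inhibitor of histone acetylation, was at 3763 ± 144 and 4198 ± 166 (SD, n = 3 each), a log2 ratio of 0.16. The 2 remaining were GABPB1-IT1, inside GABPB1, and GABPB1-AS1, which overlaps its start on the other strand. GABPB1-AS1 went from 343 ± 37.9 to 917 ± 124 while GABPB1, a subunit of a transcription factor for mitochondrial genes, went from 349 ± 19.6 to 238 ± 8.97 (SD, n = 3 each). With limma p-values adjusted over all annotated genes 7 of these 9 genes were called, and those lost were MEIS2 (adjusted p = 0.0574) and EID1 (0.115). EID1 also lost its call without sh-Control replicate 1 (limma adjusted p = 0.0548) and without sh-METTL3 replicate 2 (0.0554).

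Genes were then described in 12 lists by role, 224 genes on chromosome 15 of which 130 were listed. Over all listed genes the median log2 ratio was -0.21. Of all 143 proximal genes 134 (93.7%) were lower, with a median of -1.05. A list whose proximal genes were all lower is thus near the share of its side, and nothing about its role is read from that. Within the lists every listed gene of chromosome 15 was called, as nearly all listed genes were, so the counts below give direction only. When limma p-values were adjusted over all annotated genes, 34 of the 315 listed genes of chromosome 15 were no longer called, 5 of them proximal. Of the distal genes named in the text, those that lost their call were RPS27L, SLC24A1, ZWILCH, RPLP1, LOXL1, CSK, TICRR and FURIN.

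The imprinted domain and its neighbours were lower in 6 of 7 listed genes. UBE3A, the ubiquitin ligase read from the maternal copy in neurons, held 2303, 2305 and 2429 in the control libraries and 993, 1139 and 1045 in the sh-METTL3 libraries, a log2 ratio of -1.15. ATP10A, a phospholipid flippase, held 178, 210 and 185 against 5.60, 2.58 and 4.48, so it was 45.3-fold lower. Of the 12 genes named for this domain 3 were listed, and the other 9, among them SNRPN, NDN and MAGEL2, were not analysed here. All 4 genes between the recurrent breakpoints 1 and 2 of 15q11 were lower, with a median log2 ratio of -1.20. They were the magnesium transporters NIPA1 (-0.99) and NIPA2 (-1.53), CYFIP1 of the actin-regulating WAVE complex (-1.10) and TUBGCP5 of the γ-tubulin ring (-1.31). NIPA2 and CYFIP1 overlap on opposite strands.

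**Figure D4:**
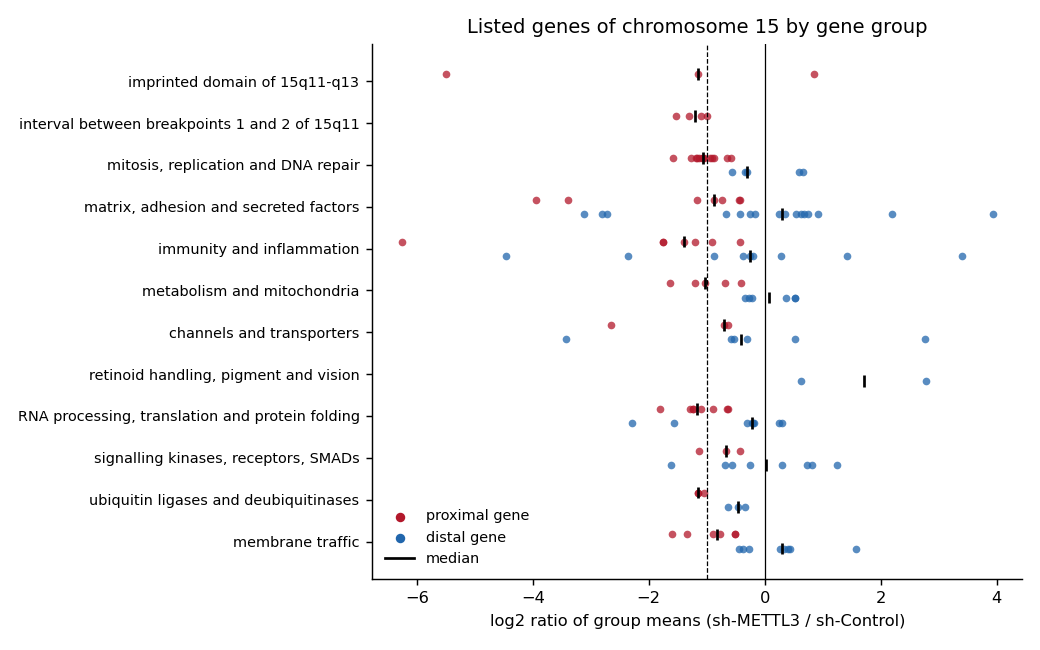
Each point is a listed gene, placed by its log2 ratio of group means (x axis) in one of 12 gene groups (y axis), with proximal genes above distal genes, a tick at each median and a dashed line at -1. In 10 of the 12 groups every listed proximal gene is lower (the imprinted domain has 1 higher gene and the retinoid group has no listed proximal gene), and the distal medians run from -0.46 to 1.71. Of all 143 listed proximal genes 134 are lower.

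Of 9 proximal matrix and adhesion genes 7 were listed, and all 7 were lower, with a median log2 ratio of -0.88. THBS1 (thrombospondin-1) held 68347, 77023 and 84773 in the control libraries and 41102, 46992 and 36854 in the sh-METTL3 libraries, or 54.3% of control. TJP1, whose promoter is shown above, held 3729, 3802 and 3774 against 1672, 1601 and 1742, or 44.4% of control. FBN1 (fibrillin-1) was at 74.5% of control and CHST14, a sulfotransferase of dermatan sulfate, at 73.4%. GREM1, an antagonist of bone morphogenetic proteins, went from 344 ± 62.6 to 32.9 ± 13.7 (SD, n = 3 each), and its neighbour SCG5, a chaperone of a prohormone convertase, from 3071 ± 190 to 295 ± 71.1. These 2 and SPINT1, an inhibitor of serine proteases (6.53% of control), lay well below the proximal median.

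On the distal side 16 of 21 matrix and adhesion genes were listed, 7 lower and 9 higher, with a median log2 ratio of 0.30. The list also counts TPM1 (tropomyosin-1), a protein of actin filaments and not of the matrix. TPM1 held 44953, 48314 and 53317 in the control libraries and 71129, 78279 and 64279 in the sh-METTL3 libraries. ANXA2 (annexin A2) held 23768, 25184 and 24867 against 40878, 39534 and 44230, or 169% of control. MFGE8, which bridges phagocytes to their targets, was at 155% of control, and LOXL1, an enzyme of elastic fibres, at 119%. In the other direction CSPG4, a membrane proteoglycan, held 2641, 2906 and 2614 against 285, 264 and 390, or 11.5% of control. CEMIP, which takes part in hyaluronan breakdown, was at 15.2% of control.

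Of 8 proximal immune genes 7 were listed, and all 7 were lower, with a median log2 ratio of -1.40. B2M held 43317, 46057 and 48971 in the control libraries and 13918, 12858 and 14316 in the sh-METTL3 libraries, or 29.7% of control. PDIA3, a disulfide isomerase of MHC class I loading, held 14902, 14824 and 15709 against 8234, 7807 and 8058, or 53.0% of control. The kinase EIF2AK4 (GCN2), a sensor of uncharged tRNA, was at 43.6% of control, and TRIM69, a RING finger protein next to B2M, had a log2 ratio of -1.40. C15orf48, a mitochondrial protein gene induced in inflammation, held 463, 627 and 562 against 2.80, 6.44 and 12.3, or 1.31% of control, the lowest share among the proximal genes with reads in both groups. TYRO3, a receptor kinase that takes part in the clearance of dying cells, was at 74.3%.

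Of 12 distal immune genes 9 were listed, of which 6 were lower and 3 higher, with a median log2 ratio of -0.26. CTSH (cathepsin H) held 1792, 1893 and 1716 in the control libraries and 5188, 5150 and 4071 in the sh-METTL3 libraries, or 267% of control. PML, of the nuclear bodies named after it, was at 54.9% of control. FURIN, a proprotein convertase, was at 87.4%, CSK, a kinase that restrains the Src family, at 83.6% and CD276, an immune checkpoint ligand, at 122%.

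**Figure D5:**
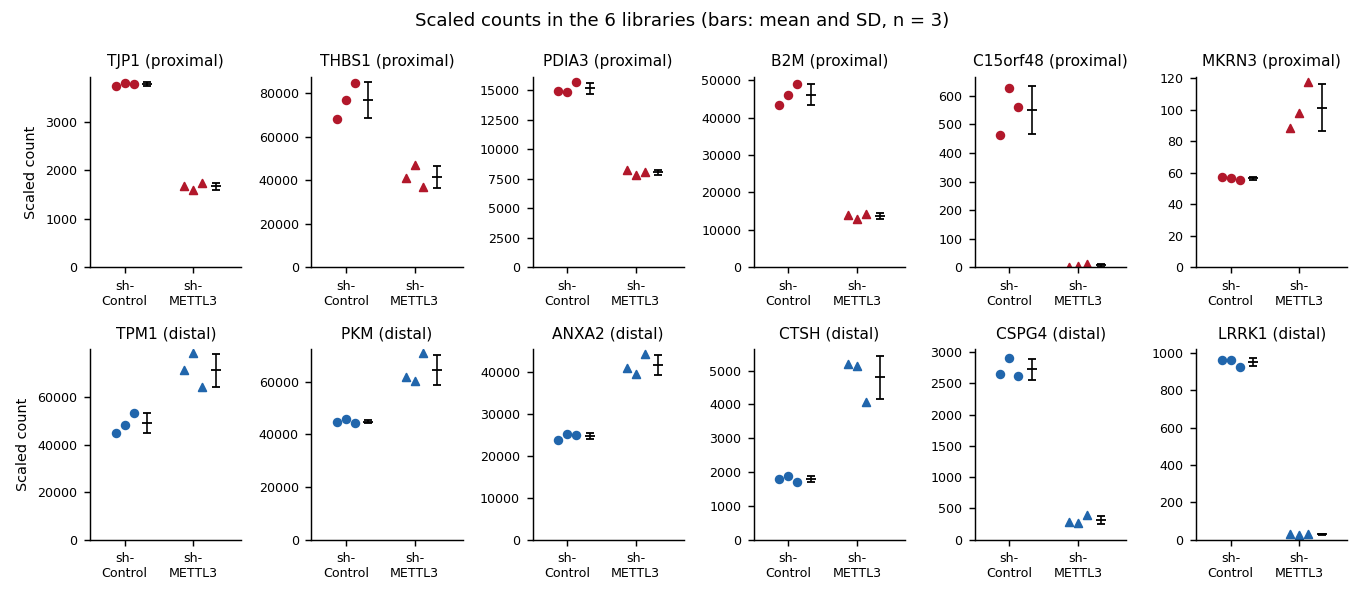
Scaled counts (y axis, from 0) in the 3 sh-Control and 3 sh-METTL3 libraries for 6 proximal genes (upper row) and 6 distal genes (lower row), with circles for control and triangles for sh-METTL3 libraries and a bar with the mean and SD. Of the proximal genes shown all but MKRN3 are lower in every sh-METTL3 library, and of the distal genes TPM1, PKM, ANXA2 and CTSH are higher and CSPG4 and LRRK1 lower.

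Of 15 proximal genes of mitosis, replication and DNA repair 13 were listed, and all 13 were lower, with a median log2 ratio of -1.06. TP53BP1, a scaffold at double-strand breaks, held 1947, 1984 and 1961 in the control libraries and 1257, 1258 and 1245 in the sh-METTL3 libraries. DUT, which removes dUTP, was at 54.8% of control, and the chromatin remodeller INO80 at 47.1%. ARHGAP11A had a log2 ratio of -1.06, and it has a partial copy nearby with which it can share reads. In BUB1B, a kinase of the spindle checkpoint, the sh-METTL3 libraries held 376, 349 and 208 against 601, 606 and 589 in control libraries, so sh-METTL3 replicate 3 was the lowest. KNL1 and NUSAP1, of the kinetochore and the spindle, had 239, 242 and 131 and 86.8, 90.2 and 51.5 in the sh-METTL3 libraries, again lowest in replicate 3.

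Of 10 distal genes of this kind 5 were listed, 3 lower and 2 higher, with a median log2 ratio of -0.30. CCNB2 (cyclin B2) held 516, 542 and 552 in the control libraries and 977, 928 and 636 in the sh-METTL3 libraries, and NEIL1, a glycosylase of base excision repair, was at 151% of control. TICRR, which helps to fire replication origins, was at 79.2% and ZWILCH, of the kinetochore, at 81.3%.

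Of 11 proximal genes of RNA processing, translation and folding 8 were listed, and all 8 were lower, with a median log2 ratio of -1.17. SRP14, of the signal recognition particle, was at 63.8% of control, SERF2 at 64.8% and EMC7, of the membrane protein insertase of the endoplasmic reticulum, at 42.3%. EIF3J, a factor bound to the small ribosomal subunit, held 1782, 1646 and 1671 in the control libraries and 487, 414 and 562 in the sh-METTL3 libraries, or 28.7% of control. Distal members stood nearer to control. RPLP1 and RPS27L, both ribosomal, were at 87.9% and 87.2%, SEC11A of the signal peptidase at 123%, and LARP6, which binds collagen mRNA, at 119%. Of 16 distal genes of this list 8 were listed, 6 lower and 2 higher, with a median of -0.21.

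Of 10 proximal genes of metabolism and mitochondria 5 were listed and all 5 were lower, with a median log2 ratio of -1.03. SQOR, which oxidises hydrogen sulfide, held 507, 583 and 607 in the control libraries and 203, 175 and 171 in the sh-METTL3 libraries. IVD, of leucine breakdown, was at 62.0% of control, SORD, of the polyol pathway, at 49.0% and GALK2, a sugar kinase, at 75.2%. Of 18 distal genes of this list 6 were listed, 3 lower and 3 higher. PKM (pyruvate kinase) held 44622, 45647 and 44251 against 61744, 60328 and 70824, or 143% of control, and IDH2 of the mitochondria was at 144%. POLG, the mitochondrial DNA polymerase, was at 78.8% and CLPX, of a mitochondrial protease, at 82.7%.

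Of 9 proximal channels and transporters 3 were listed, and all 3 were lower. Among them were SLC30A4, a zinc transporter (61.3% of control), and CHRNA7, a nicotinic receptor subunit, which went from 32.2 ± 7.55 to 5.15 ± 4.27 (SD, n = 3 each). CHRNA7 can share reads with its partial copy CHRFAM7A, which was at 11.5% of control. On the distal side 6 of 9 were listed, 4 lower and 2 higher. The list also counts CA12, a carbonic anhydrase at the cell surface, which is no channel or transporter. CA12 held 1797, 1995 and 1859 in the control libraries and 157, 148 and 222 in the sh-METTL3 libraries, or 9.32% of control. TRPM7, a channel with a kinase domain, was at 66.9%, the transporter SLCO3A1 at 69.6% and SLC24A1, a sodium, calcium and potassium exchanger first known from rods, at 81.1%.

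Of 6 proximal signalling genes 3 were listed, and all 3 were lower. SPRED1, an inhibitor of Ras signalling, was at 62.6% of control and the kinase TTBK2, which starts cilium assembly, at 45.4%. Of 16 distal signalling genes 8 were listed, 4 lower and 4 higher, with a median log2 ratio of 0.02. SMAD3, which carries TGF-β signals, held 12431, 12939 and 13241 in the control libraries and 9162, 8474 and 8396 in the sh-METTL3 libraries. SMAD6, an inhibitor of this family, held 517, 467 and 497 against 1060, 1276 and 1162, or 236% of control. IGF1R, the receptor of insulin-like growth factor, was at 124% and the kinase MAPK6 at 61.9%.

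The ubiquitin ligases UBE3A, HERC2 and UBR1 had log2 ratios of -1.15, -1.05 and -1.15, and HERC2 has partial copies with which it can share reads. Of 9 distal members 3 were listed, USP3, NEDD4 and FEM1B, which stood at 64.9%, 72.6% and 78.8% of control. All 6 listed proximal genes of membrane traffic were lower, with a median log2 ratio of -0.83. VPS18 and VPS39, shared by the tethering complexes of late endosomes, stood at 58.7% and 54.1%, and BLOC1S6, of lysosome-related organelles, at 70.5% of control, and EHD4 of recycling endosomes had a log2 ratio of -1.60. Of 15 distal traffic genes 8 were listed, 3 lower and 5 higher, with RAB11A of recycling endosomes at 135%, SNX1 at 120%, SNX33 at 133% and VPS13C at 83.3% of control.

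Of 9 distal genes for retinoid handling, pigment and vision, 2 were listed and both were higher. STRA6, the receptor for retinol-binding protein, held 15.2, 20.2 and 3.74 in the control libraries and 101, 96.6 and 72.8 in the sh-METTL3 libraries. MYO5A, the motor that carries pigment granules, held 1316, 1272 and 1212 against 1885, 1952 and 2050. None of the 3 proximal genes of this kind (OCA2, TRPM1 and SLC24A5) was listed.

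The widest ratios among protein-coding genes with a mean of at least 100 were found on both sides. On the proximal side the 5 largest falls included those of C15orf48, GREM1, SCG5 and MAP1A (log2 ratio -2.82), which binds microtubules. On the distal side they were LRRK1, DNAJA4, CA12, CSPG4 and CEMIP. LRRK1, a kinase of the leucine-rich repeat family, held 964, 961 and 925 in the control libraries and 30.8, 24.5 and 30.2 in the sh-METTL3 libraries, so it was 33.3-fold lower. DNAJA4, a chaperone of the heat shock family, went from 297 ± 80.7 to 22.3 ± 4.81 (SD, n = 3 each). The 5 largest distal rises were CTSH, MEX3B (log2 ratio 1.37), which binds RNA, SMAD6, the oxidase NOX5 (1.22) and TMOD2 (0.98), which caps actin filaments. Large falls were thus present on both sides of the split.

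Of the members, 3 had 0 reads in 1 group. AC023449.2, inside ATP10A, had a mean of 10.2 in control cells and was at least 9.19-fold lower against a floor of 3 reads over the 3 libraries, and C15orf56 had 9.12 and was at least 8.19-fold lower. The antisense RNA AC087639.2 on the distal side had 4.16 in METTL3-silenced cells and was at least 4.63-fold higher. The floors cover counting error only.

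Listed genes that overlap on opposite strands were also compared. Of 16 such proximal pairs 15 went the same way, and of 13 distal pairs 9 did. As 93.7% of all listed proximal genes were lower, most proximal pairs would go the same way without overlap. Nothing about overlap is read from these counts. Whether counting used strand is not given in the sources used here, so the reads of such a pair cannot be told apart. The proximal exception was GABPB1 with GABPB1-AS1, described above. Of listed genes that overlap on the same strand, 8 of 10 proximal and 3 of 3 distal pairs went the same way.

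Levels, lengths and the spread between libraries were set side by side, with no test. The group means are the values that the ratio is made of, so their medians are a description only. The median control level was 585 for proximal and 651 for distal genes, beside 585 on other chromosomes. In METTL3-silenced cells the medians were 317, 675 and 552. Per kilobase of exon the control medians were 92.0, 100.1 and 118, and the median exonic lengths were 6478, 6931.5 and 4922 bases. The coefficient of variation between control libraries, over genes with a mean of at least 100, had medians of 5.25%, 5.56% and 5.34%. Between sh-METTL3 libraries it was 8.53%, 7.46% and 6.57%, in the same order, so each of the 3 medians was higher in METTL3-silenced cells.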

How the data were processed

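RNA of 3 sh-METTL3 and 3 sh-Control libraries, all LPS-treated, was analysed from 1 table, with groups taken from the sample labels. The submitters' processing notes name HISAT2 2.0.5 and hg38; the study's methods name Cufflinks with RefSeq mRNAs, a form the table does not have, since its rows are Ensembl genes whose start and end equal those of GENCODE release 29. In the library columns the authors deposited a signal, the read count of each gene divided by 1 size factor per library. Whole reads were recovered for 100% of the values of each library (tolerance 0.01 reads), and edgeR on these reads called 4054 listed genes lower and 3704 higher. Group means, a log2 fold change and 2 columns of p-values, raw and adjusted, were also deposited by the authors and were not used. The table lists only genes they had called. Library depth is unknown, and reads on listed genes are given in its place. In 13 rows a symbol was replaced from GENCODE.

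The log2 ratio is that of the group means. With 1 added to each scaled count, log2 values of all 7758 genes were fitted in limma 3.58.1 (R 4.3.3), with an intensity trend and no covariate, with Benjamini-Hochberg adjustment over them and a threshold of 0.05. This scale understates changes of weak genes. The fits were also run on simulated counts, as a check of the code only. Alternatives were edgeR 4.0.16 and DESeq2 1.42.0 on the recovered reads, TMM and RLE factors, other pseudocounts, filters, centrings, variance priors, numbers of tests and split points, protein-coding genes only, a replicate block, and fits without each library. Libraries with the same number had deviations from their group means that correlated at 0.0036, 0.019 and -0.015, which does not pair them.

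The members and the lists were chosen with earlier results of these data known. Named genes were METTL3, TJP1 and C15orf48, up to 4 genes with the highest mean per list and side, the 5 largest falls and rises per side among protein-coding genes with a mean of at least 100, genes within 1 Mb of the split, and every proximal gene that was higher. AC023449.2, C15orf56, AC087639.2, CHRFAM7A, BUB1B, KNL1, NUSAP1, SPINT1, MYEF2, RSL24D1 and ZNF280D were chosen after their values were seen. Single results of some genes that the rule selects are not reported here.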

Additional observations from a re-analysis of the deposited data

How the results depend on the processing

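No member changed sign in any of 17 alternative fits of single genes, and 92 of 103 named genes kept their call in each fit that gave them a value. The other 11 lost it in 35 cases (METTL3, MEIS2, EID1, RPS27L, SLC24A1, ZWILCH, RPLP1, LOXL1, CSK, TICRR and FURIN). The list holds only genes its authors had called, so a change of sign was hardly possible. RLE factors moved the median of all listed genes by 0.123 on the log2 scale and left 23 members uncalled, 1 of them proximal, and adjustment over all annotated genes left 34 uncalled, 5 of them proximal.

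The proximal median log2 ratio of -1.05 was -1.03 for genes with a mean of at least 50, -1.01 with TMM factors, -0.93 with RLE factors and -1.001 when centred on genes outside chromosomes 11 and 15. It was -1.08 with the split at 48 Mb, -1.03 at 55 Mb and -0.99 at 60 Mb. The distal median of 0.23 had the opposite sign for genes with a mean of at least 50 (-0.20), for protein-coding genes only (-0.21) and with the split at 45 Mb (-0.19), so its sign is not stable; it was 0.27 with TMM factors, 0.35 with RLE factors and 0.29 when centred. The proximal minus distal median of -1.29 was -0.84 for genes with a mean of at least 50, -0.84 for protein-coding genes and -0.88 with the split at 45 Mb. The ratio of the proximal to distal read ratio between groups, 0.456, was 0.443, 0.441, 0.467 and 0.485 with the split at 45, 48, 55 and 60 Mb. The cause was not tested.

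Called proximal genes with a higher level numbered 5 among protein-coding genes, 15 with the split at 55 Mb and 18 at 60 Mb. With a doubling or halving required as well, 81 proximal genes were lower and 3 higher, 15 distal genes lower and 30 higher, and 1024 listed genes lower and 1358 higher. Leaving out 1 library at a time gave a proximal median from -1.08 (without sh-METTL3 replicate 3) to -1.05, a distal median from 0.20 to 0.25, a difference from -1.31 to -1.25, a read ratio from 0.451 to 0.464, from 133 to 134 proximal genes lower and from 8 to 9 higher, and from 77 to 82 distal genes lower and from 84 to 88 higher.

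With the replicate number as a block, 134 proximal genes were called lower and 9 higher, 82 distal genes lower and 90 higher, and the medians were -1.06 and 0.23 on the limma scale; the block changed no call of a member. The numbers do not pair the libraries. With 3 libraries a group, outliers among libraries were not tested.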
